A study of Homo sapiens with 6 samples.

Results

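The BCL2 family genes that decide between survival and death at the mitochondrion were followed in human glioblastoma cells in which TRAF2 was knocked down. The members were 10 genes taken by name from the deposited table: BCL2, BCL2L1, MCL1, BCL2A1, BAX, BAK1, BID, BBC3, PMAIP1 and BCL2L11. All 10 were found among the 23002 genes of the table, and all 10 had a mean level high enough to be tested. Messenger RNA was sequenced in 6 samples of U251, an established human glioblastoma line. A control short hairpin RNA (sh-NC) was expressed in 3 samples and a short hairpin RNA against TRAF2 (sh-TRAF2) in the other 3. TRAF2 is a ubiquitin ligase and adaptor below the TNF receptors. Per the study's methods, hairpins were delivered by lentivirus and the cells selected with puromycin, so both groups carry a vector and the selection, and no further agent is named for these samples. The 3 samples of a group are named biological replicates of the same line, and the p-values measure the spread between them. The study's methods do not say whether the replicates come from separate transductions. The p-values may therefore not cover differences between transductions or hairpins. Which of the TRAF2 hairpins was sequenced is not given in the sources used here.

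The BCL2 family governs the permeability of the outer mitochondrial membrane. Survival members hold the pore formers BAX and BAK1 in check, and BH3-only members, which share a single short domain with the rest, bind the survival members or activate the pore formers directly. Once pores form, cytochrome c leaves the mitochondrion and caspases are activated. Glioma cells are known to rely on MCL1 and BCL2L1 (the gene of Bcl-xL) for survival.

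Both designed TRAF2 target sites are shown because a 7-base stretch of the first recurs in members' transcripts. The capitals mark that stretch, bases 10 to 16 of the sh-TRAF2#1 target counted from its 5′ end.
sh-TRAF2#1: cccttgcagATTCCACgccat
sh-TRAF2#2: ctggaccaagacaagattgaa
In GRCh38 with GENCODE 29, the sh-TRAF2#1 target is coding sequence in exon 7 of TRAF2 (chr9:136916579-136916599, plus strand). The sh-TRAF2#2 target is coding sequence in exon 8 (chr9:136920480-136920500, plus strand). The longest annotated 3′UTRs of BID and BCL2 hold the same 7 bases, at chr22:17735090-17735096 and chr18:63127513-63127519 (minus strand in both). The stretches around them are given with the shared bases in capitals.
BID: caaatgaaaaATTCCACtcaaaatagg
BCL2: ggagctcagaATTCCACtgtcaagaaa
No match was found in the 3′UTRs of the other 8 members. The 7 bases were picked from an earlier scan of these same data, and 1134 of 10607 tested genes with a 3′UTR (10.7%) hold them. Among those carriers 36.7% were lower in sh-TRAF2 at an adjusted p under 0.05, against 20.3% of the tested genes without them. Since the scan chose the bases for such a difference, these shares are a description and support nothing.

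Promoter windows of BCL2A1 and BCL2L11 are shown because the former had the largest difference among the members and the latter holds a motif of a factor family measured below. Each runs from 250 bases before to 50 bases after the RefSeq start site, 5′ to 3′ on the gene's strand (GRCh38.p14). The capitals in BCL2A1 (chr15:79971147-79971446, minus strand) mark an interferon regulatory factor core, and those in BCL2L11 (chr2:111120664-111120963, plus strand) a FOXO core.
BCL2A1: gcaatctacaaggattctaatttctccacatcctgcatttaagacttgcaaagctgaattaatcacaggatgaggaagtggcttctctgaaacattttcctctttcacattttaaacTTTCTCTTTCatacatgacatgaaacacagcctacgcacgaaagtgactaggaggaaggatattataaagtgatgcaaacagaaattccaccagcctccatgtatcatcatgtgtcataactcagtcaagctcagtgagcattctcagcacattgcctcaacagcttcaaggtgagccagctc
BCL2L11: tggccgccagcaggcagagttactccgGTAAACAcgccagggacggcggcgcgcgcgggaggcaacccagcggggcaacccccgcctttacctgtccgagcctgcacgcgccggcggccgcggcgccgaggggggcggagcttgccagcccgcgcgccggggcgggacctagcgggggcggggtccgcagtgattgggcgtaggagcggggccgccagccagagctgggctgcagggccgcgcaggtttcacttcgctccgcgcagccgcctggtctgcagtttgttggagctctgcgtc
The motifs were chosen after the sequences were seen and searched on both strands of 14 windows of 9 members. MCL1 had no window. The interferon regulatory factor core reads GAAA, any 2 bases and GAAA. It was found in BCL2A1, starting 133 bases before the start site, and at 2 overlapping places in BBC3. Of the 35116 promoter windows searched, which do not cover every chromosome, 3.57% hold it. The FOXO core GTAAACA was found in BCL2L11, starting 223 bases before the start site, and 3.42% of windows hold it. The AP-1 core TGANTCA was found in BBC3, and 7.71% of windows hold it. A loose kappaB pattern, which reads GGG, any 5 bases and CC, was searched first. It was found in 10 of the 14 member windows, from 6 of the 9 members, but 58.7% of all windows hold it. The stricter kappaB consensus, tried after that share was seen, is in 11.3% of windows and was found in no member's window. These matches describe the letters of the windows only.

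Levels are given in FPKM, fragment counts scaled by transcript length and by library depth, so that genes can be set beside each other. TRAF2 itself was read first. Its FPKM was 15.1, 18.4 and 15.3 in sh-NC and 3.26, 3.22 and 3.33 in sh-TRAF2, so every knockdown sample lay below every control. The level was lower by 79.9%. Reads on genes, recovered from the steps of the FPKM values, ran from 33999558 to 36823562 per sample and were of like depth in both groups. Of the markers fixed for astroglial and glioma cells, VIM, NES, CD44 and SOX2 were above 4 FPKM in every sample, GFAP stayed under 2 FPKM and S100B was at or near 0. The summed level of these 6 markers was 1430 to 1500 FPKM in sh-NC and 1780 to 1820 FPKM in sh-TRAF2. VIM lay at 1210 to 1280 FPKM in sh-NC and 1560 to 1610 FPKM in sh-TRAF2. NES lay at 4.82 to 5.88 and 11.4 to 11.8 FPKM, and the part of these markers in the members' differences was not tested. Of 10 markers of blood, vessel, epithelial, neuronal and myelin cells, 8 were in the table and only CD68 reached 1 FPKM; the summed level of the list was 15.9 to 16.6 in sh-NC and 14.9 to 17.6 in sh-TRAF2.

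Within the family, the order of levels was led by MCL1, an unstable survival protein, with a mean of 130 ± 3.42 FPKM (SD, n = 3) in sh-NC. BCL2L1 followed at 111 ± 6.32 FPKM and BAX at 67.8 ± 3.55 FPKM (SD, n = 3 each). BCL2, the founding member, was the lowest at 0.658 ± 0.126 FPKM (SD, n = 3). In sh-NC each member was separated from the next in the order except BID and BBC3, whose samples overlapped. In sh-TRAF2 the order changed at the places held by BCL2A1, BBC3 and BID. There BCL2A1 stood above BBC3, with overlapping samples, and BID fell below BBC3, while BAX and PMAIP1 overlapped.

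**Figure D1:**
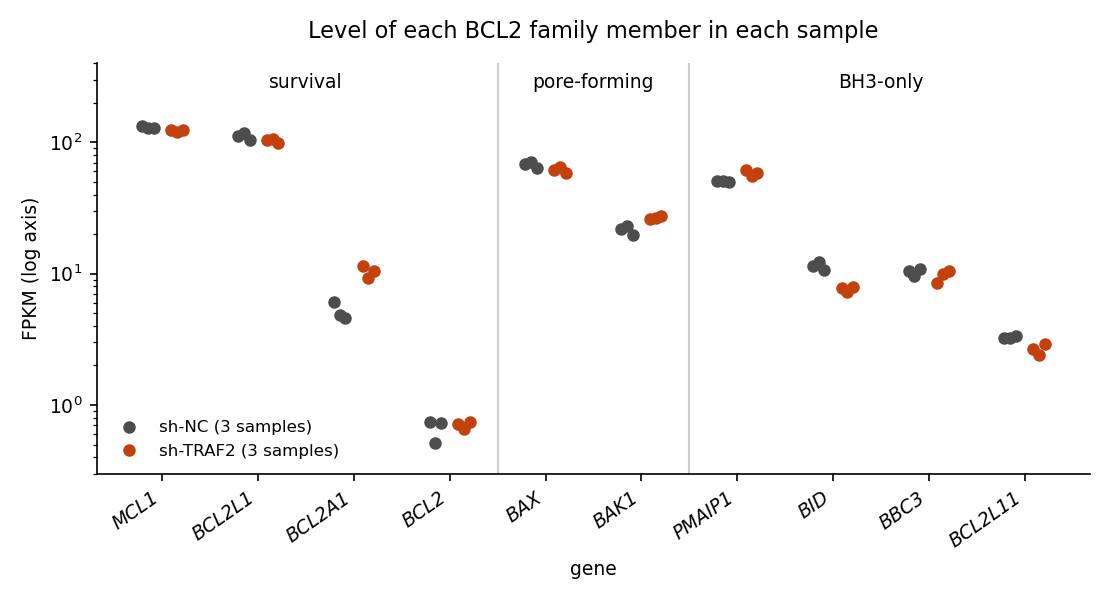
FPKM (log axis) of each member in each of the 3 sh-NC (grey) and 3 sh-TRAF2 (orange) samples, with genes grouped by role. MCL1 and BCL2L1 were the highest in every sample and BCL2, under 1 FPKM, the lowest.

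After TRAF2 knockdown, the survival gene BCL2A1, the pore former BAK1 and the BH3-only gene PMAIP1 were higher, and the BH3-only genes BID and BCL2L11 were lower. The largest difference was that of BCL2A1, at 2.01 times its control level. MCL1 and BCL2L1, which make up most of the survival transcripts, did not pass the test. Thus 3 of 10 members passed in the higher direction, where 23.7% of all 11870 tested genes did, and 2 of 10 in the lower direction, where 20.9% did. Both shares are near the background, and either direction together gave 5 of 10 members against 44.6% of tested genes. The groups did not overlap in 6 of 10 members, against 55.5% of tested genes. The test was limma on log2(FPKM + 0.1), with Benjamini-Hochberg adjustment over all tested genes and a threshold of 0.05, and fold changes on that scale understate those of low genes. None of the members passed the stricter call that also asks for an absolute log2 fold change above 1, which 1.72% of tested genes passed. In bulk RNA a change of transcripts per cell and a change in the share of cells that express a gene cannot be told apart.

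The survival member BCL2A1, the gene of BFL-1/A1 and a known NF-κB target, was at 6.08, 4.81 and 4.63 FPKM in sh-NC and at 11.5, 9.27 and 10.5 FPKM in sh-TRAF2. The lowest knockdown sample was above the highest control. These levels rest on 181, 144 and 144 reads against 334, 266 and 307 reads. The log2 fold change was 1.00 (standard error, SE, 0.113, 95% interval 0.74 to 1.26, limma adjusted p = 0.000254), just short of 1 before rounding. The exact permutation test over the 20 assignments of samples gave p = 0.1 (two-sided), the smallest that 3 samples against 3 allow.

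MCL1 was at 134, 128 and 128 FPKM in sh-NC and at 125, 120 and 125 FPKM in sh-TRAF2. The groups did not overlap, yet the difference did not pass, with a log2 fold change of -0.08 (95% interval -0.16 to 0.00, limma adjusted p = 0.109). BCL2L1 was at 111, 117 and 104 FPKM in sh-NC and at 104, 106 and 98.7 FPKM in sh-TRAF2. Its groups overlapped and its log2 fold change was -0.10 (95% interval -0.21 to 0.01, limma adjusted p = 0.123), but it passed with sh-NC replicate 3 left out (adjusted p = 0.0425). Both genes are spliced into forms with opposite effects on death, and a level per gene does not separate them. BCL2L1 shares 1424 of 3314 exon bases with ABALON on the opposite strand in GENCODE 29. Whether strand was used in counting is not given in the sources used here, so reads of the shared bases cannot be told apart.

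BCL2 was at 0.737, 0.512 and 0.724 FPKM in sh-NC and at 0.721, 0.652 and 0.748 FPKM in sh-TRAF2, from 190 to 279 reads per sample. The groups overlapped, and the wide 95% interval of the log2 fold change, -0.30 to 0.51, allows a change in either direction (limma adjusted p = 0.66). Without the lowest control sample, sh-NC replicate 2, the estimate changed sign to -0.04.

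Of the pore formers BAK1 rose and BAX did not pass. BAK1 was at 21.9, 23.2 and 19.7 FPKM in sh-NC and at 25.9, 26.6 and 27.7 FPKM in sh-TRAF2, and all 3 knockdown samples were above the controls. Its log2 fold change was 0.31 (SE 0.0628, limma adjusted p = 0.00481). BAX, the partner that sits in the cytosol until activated, was at 68.6, 70.8 and 63.9 FPKM in sh-NC and at 61.7, 65.0 and 58.4 FPKM in sh-TRAF2. Its groups overlapped and it did not pass (log2 fold change -0.14, 95% interval -0.26 to -0.01, limma adjusted p = 0.067). BAX passed with sh-NC replicate 3 left out (adjusted p = 0.0316) and with sh-TRAF2 replicate 2 left out (adjusted p = 0.0452). Whether the 2 changes differ from each other was not tested.

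Among the BH3-only members BID, which links death receptors to the mitochondrion after cleavage by caspase-8, had the clearest fall. It was at 11.4, 12.3 and 10.7 FPKM in sh-NC and at 7.73, 7.29 and 7.86 FPKM in sh-TRAF2. No knockdown sample came near the controls, and BID fell by 0.58 on the log2 scale (SE 0.0636, limma adjusted p = 0.00021), or by 33.6% in mean FPKM. BID is 1 of the 2 members whose 3′UTR holds the 7 bases of the sh-TRAF2#1 target shown above. The other, BCL2, did not pass the test, and the part of this stretch in the fall of BID was not tested.

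BCL2L11, the gene of BIM, was at 3.23, 3.24 and 3.35 FPKM in sh-NC and at 2.66, 2.39 and 2.90 FPKM in sh-TRAF2. The groups did not overlap, and it fell by 0.30 on the log2 scale (SE 0.0854, limma adjusted p = 0.0218). The call did not hold in 3 of the 6 fits that leave out 1 sample: the adjusted p was 0.0517 without sh-NC replicate 1, 0.0633 without sh-NC replicate 3 and 0.0647 without sh-TRAF2 replicate 2. With no filter on low genes it was 0.0583. BCL2L11 shares 727 of 6658 exon bases with MIR4435-2HG on the opposite strand, a gene that moved the other way, from 6.79 ± 0.571 to 11.1 ± 0.23 FPKM (SD, n = 3 each), and reads of the shared bases cannot be told apart.

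PMAIP1, the gene of NOXA, whose protein binds MCL1, was at 50.8, 50.4 and 50.1 FPKM in sh-NC and at 61.6, 55.8 and 58.0 FPKM in sh-TRAF2. Controls lay within 1 FPKM of each other and below every knockdown sample. Its log2 fold change was 0.21 (SE 0.0426, limma adjusted p = 0.00459). BBC3, the gene of PUMA, was at 10.5, 9.54 and 10.8 FPKM in sh-NC and at 8.52, 9.90 and 10.4 FPKM in sh-TRAF2. Its groups overlapped and it did not pass (log2 fold change -0.10, 95% interval -0.29 to 0.09, limma adjusted p = 0.354).

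**Figure D2:**
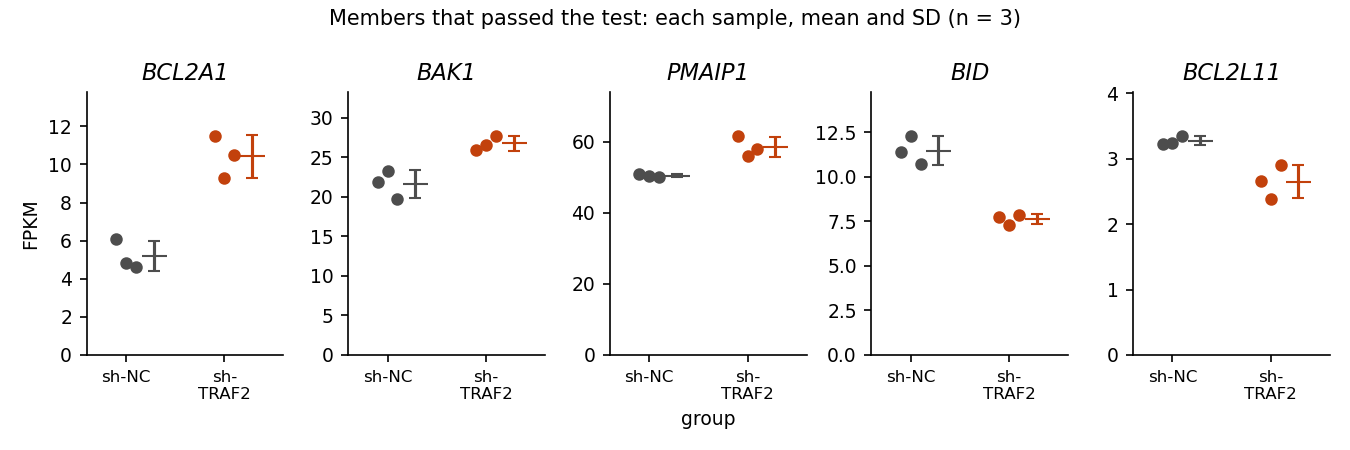
FPKM of the 5 members that passed the test, by group, each on its own axis from 0. Points are samples, and the dash with bars is the mean and SD (n = 3). In each panel the sh-TRAF2 samples lie wholly above (BCL2A1, BAK1, PMAIP1) or wholly below (BID, BCL2L11) the sh-NC samples.

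**Figure D3:**
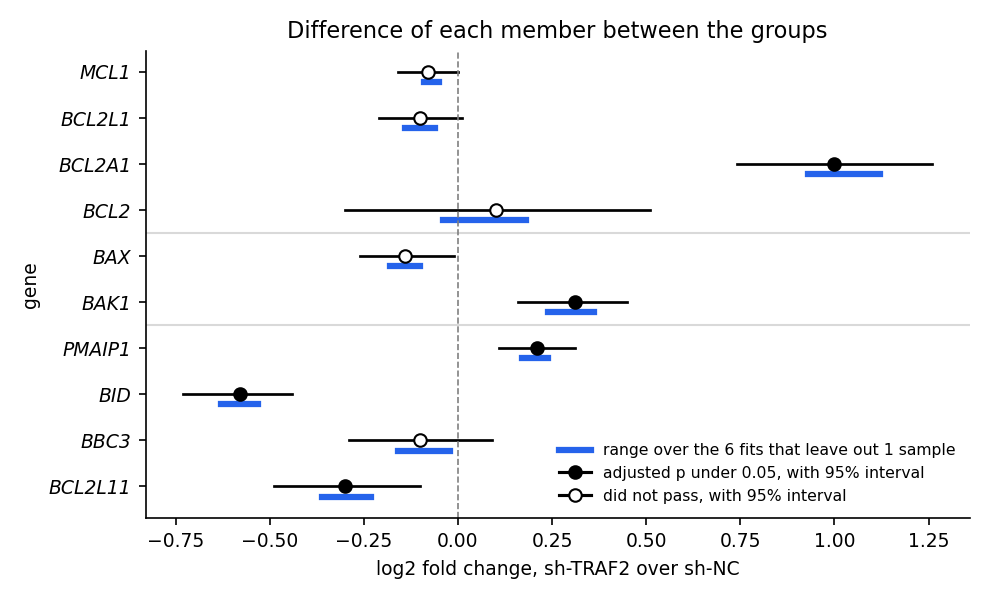
Log2 fold change of each member, sh-TRAF2 over sh-NC, with its 95% interval (black) and the range of the estimate over the 6 fits that leave out 1 sample (blue). Filled points passed the test. BCL2A1 stayed between 0.93 and 1.12 and BID between -0.63 and -0.53, while the range of BCL2 crossed 0.

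Summed FPKM placed the members side by side as a description, with no test. The sums cover the 10 members only and are not totals of the family. Left out were, among others, BCL2L2 (mean 9.89 FPKM in sh-NC and 8.07 in sh-TRAF2) and BAD (27.7 and 30.9 FPKM). The 4 survival members summed to 247 ± 7.78 FPKM in sh-NC and 238 ± 3.80 FPKM in sh-TRAF2, and the 6 death members to 165 ± 5.67 and 167 ± 1.49 FPKM (SD, n = 3 each). The ratio of the sums was 1.51, 1.48 and 1.5 in sh-NC and 1.44, 1.41 and 1.42 in sh-TRAF2, lower in all 3 knockdown samples. In each sum alone the groups overlapped. The mean level of MCL1 differed by -6.68 FPKM and that of BCL2L1 by -7.55 FPKM, and neither gene passed the test. BCL2A1, the only survival member that passed, differed by 5.23 FPKM. MCL1 and BCL2L1 together made up 97.3% to 97.9% of the survival sum in sh-NC and 95% to 95.8% in sh-TRAF2. BCL2A1 rose within that sum but stayed a small share of it, at 2.1% ± 0.278 in sh-NC and 4.38% ± 0.41 in sh-TRAF2 (SD, n = 3 each).

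The following ratios were chosen after the values were seen. The ratio of BAX to BAK1 was 3.13, 3.05 and 3.24 in sh-NC and 2.38, 2.44 and 2.11 in sh-TRAF2. PMAIP1 made up 66.8% of the summed BH3-only members in each of the 3 controls and 76.5%, 74.0% and 73.2% in the knockdown samples. The ratio of PMAIP1 to its binding partner MCL1 was 0.388 ± 0.00799 in sh-NC and 0.473 ± 0.016 in sh-TRAF2 (SD, n = 3 each). In each of these ratios the groups did not overlap. PMAIP1 and BAK1 were already higher, and MCL1 lower, in every knockdown sample than in every control. The separation of the ratios was thus largely set by the choice of genes and is a description only. Protein levels were not measured here.

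**Figure D4:**
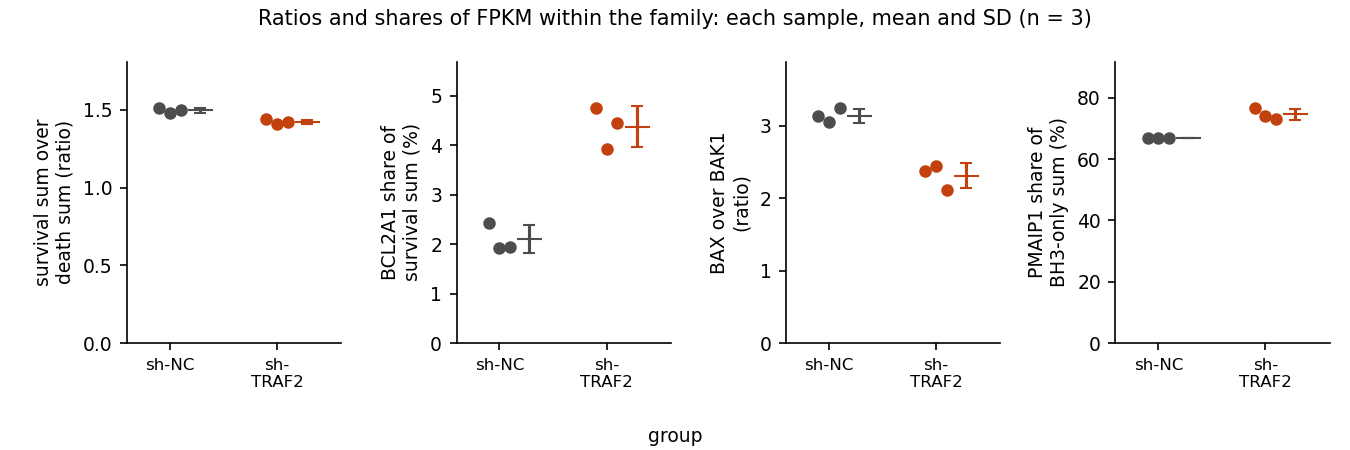
Ratios and shares of FPKM among the members only, by group, each on an axis from 0. Samples are points, with the mean and SD (n = 3) beside them. The survival to death ratio moved from 1.5 to 1.42 and BAX over BAK1 from 3.14 to 2.31, while the share of BCL2A1 rose from 2.1% to 4.38% of a sum led by MCL1 and BCL2L1.

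Of 13 other BCL2 family genes 9 were tested, of which 1 passed higher and 2 lower, where 23.7% and 20.9% of all tested genes did. The median log2 fold change was -0.02 against 0.02 over all tested genes. BIK, a BH3-only protein of the endoplasmic reticulum, was at 0.207, 0.676 and 0.849 FPKM in sh-NC and at 2.14, 1.56 and 2.13 FPKM in sh-TRAF2. It rose by a log2 fold change of 1.73 (SE 0.378, limma adjusted p = 0.00657), from 7, 23 and 30 reads to 71, 51 and 71 reads. The size depended on the setting, and the log2 fold change was 0.92 with a pseudocount of 1, 1.24 without sh-NC replicate 1 and 2.05 without sh-NC replicate 3. The survival gene BCL2L2, which encodes BCL-W, fell by 0.29 and BCL2L12 by 0.37 on the log2 scale (limma adjusted p = 0.00646 and 0.00423). BCL2L10, HRK, BCL2L14 and BCL2L15 were too low to be tested.

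Of the 14 genes of the apoptosome and outer membrane list, which act at or after the step the family controls, 5 passed higher and 3 lower, beside the same 23.7% and 20.9% of all tested genes, with a median log2 fold change of 0.08. HTRA2, a mitochondrial protease that is released with cytochrome c, rose from 8.51 ± 0.609 to 13.2 ± 1.59 FPKM (SD, n = 3 each; limma adjusted p = 0.000846). XIAP, the caspase inhibitor that HTRA2 and DIABLO oppose, fell from 19.7 ± 0.906 to 16.2 ± 0.624 FPKM (SD, n = 3 each; limma adjusted p = 0.00275). DIABLO rose by 0.22 and APAF1 fell by 0.25 on the log2 scale (limma adjusted p = 0.0239 for each). Each of these 2 passed in only 2 of the 6 fits that leave out 1 sample. CYCS and CASP9 did not pass.

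Of 14 regulators of the transcription or turnover of family members, 3 passed higher and 4 lower, again beside 23.7% and 20.9%, with a median log2 fold change of -0.13. FOXO3, a transcription factor of BCL2L11 and BBC3, was at 17.2, 18.5 and 16.9 FPKM in sh-NC and at 11.2, 10.4 and 10.5 FPKM in sh-TRAF2. The groups were far apart, and FOXO3 fell by 0.71 on the log2 scale (limma adjusted p = 3.75e-05). FOXO1 did not pass and its groups overlapped (log2 fold change -0.25, limma adjusted p = 0.144). BCL2L11 was lower and BBC3 did not pass, and the part of FOXO3 in either level was not tested. E2F1, a cell cycle factor, rose from 10.8 ± 0.809 to 17.3 ± 1.38 FPKM (SD, n = 3 each; limma adjusted p = 0.00022).

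**Figure D5:**
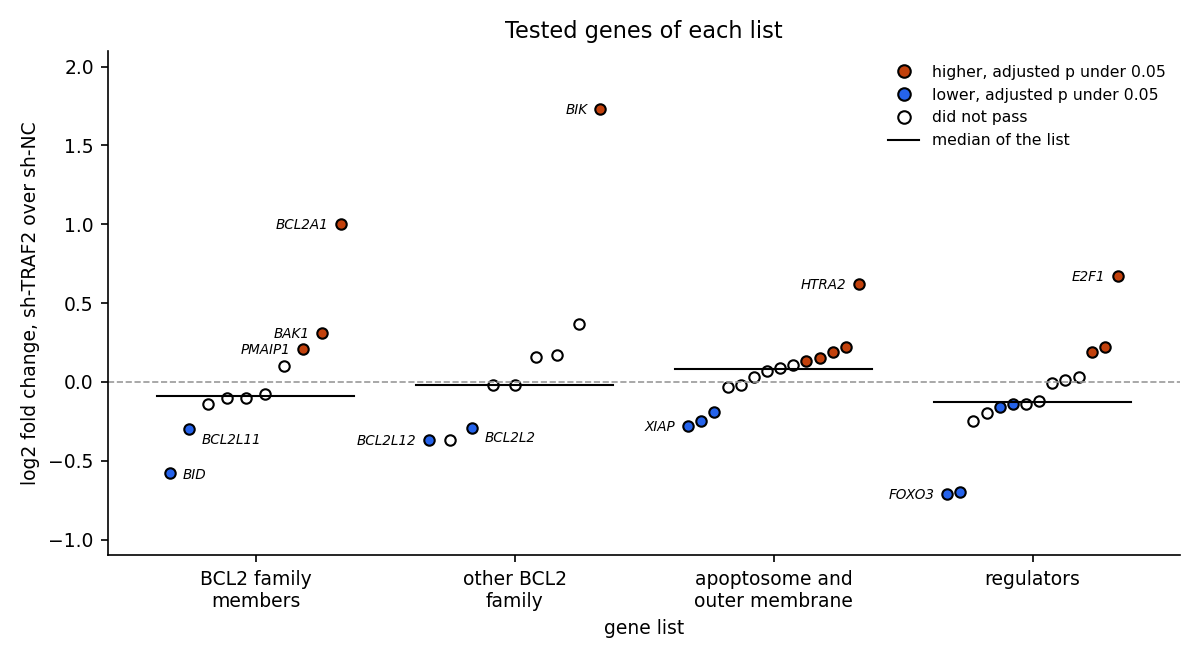
Log2 fold change, sh-TRAF2 over sh-NC, of the members and of the tested genes of 3 other lists, in rising order within each list, with the list median as a line. Orange and blue points passed higher and lower, open points did not pass. BIK at 1.73 had the largest value drawn, and the medians lie between -0.13 and 0.08.

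The genes most like BCL2A1 across the 6 samples, by Pearson's r of log2(FPKM + 0.1) among tested genes outside the members, were GATA3 (r = 0.998), ZNF649 (r = 0.9954) and DRG1 (r = 0.9952). GATA3 went from 3.16 ± 0.118 to 3.88 ± 0.154 FPKM, ZNF649 from 2.60 ± 0.20 to 3.47 ± 0.212 FPKM and DRG1 from 34.0 ± 1.32 to 44.4 ± 1.28 FPKM (SD, n = 3 each). In all, 598 genes had an r above 0.95. The 6 points fall into the 2 groups, so r mostly follows the group difference and is given as a description.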

How the data were processed

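RNA of 3 sh-NC and 3 sh-TRAF2 samples was sequenced, with groups taken from the sample labels. The authors deposited FPKM per gene and sample, with no value column left unassigned (0 of 6). The submitters' processing notes list HISAT2, HTSeq, R 3.2.0 and DESeq2 without roles. The genome build, annotation and strand setting are not given in the sources used here.

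From the deposited FPKM, log2(FPKM + 0.1) was tested with limma 3.58.1 in R 4.3.3 (lmFit, eBayes with a trend, two-sided) on 11870 genes whose mean reached 0.5 FPKM, with Benjamini-Hochberg adjustment. The filter and pseudocount affect low genes most. The authors' FPKM values are whole multiples of a step per gene, from which whole reads were recovered for all 23002 genes (tolerance 0.0001). Where only 1 sample had reads (2643 genes), the lowest count was taken. Replicates differed by more than counting noise. The fit was tested on simulated data.

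The members and lists were chosen with earlier results of these data known. Named are TRAF2, all members, the 3 genes of each list with the smallest adjusted p and the 3 genes most like BCL2A1. Of these, 2 genes, and the gene list that rests on 1 of them, are not reported here; the list is kept in the counts over all lists. ABALON, MIR4435-2HG and the cell markers are named for overlap and identity. FOXO1, DIABLO, APAF1, CYCS, CASP9 and BAD are named beside genes of their lists. The fit was repeated with a pseudocount of 0.01 or 1, without the filter or with a mean of at least 1 FPKM, rescaling to TPM, quantile normalization, a replicate block, eBayes without a trend, limma-voom on recovered reads with a mean of at least 10, leaving out each sample, and the stricter call. Hairpin targets came from the study's supplement, promoters from RefSeq and 3′UTRs from GENCODE 29. Tables were handled in pandas 2.3.3 and numpy 2.4.6 under Python 3.11.15, exact tests in scipy 1.17.1 and plots in matplotlib 3.10.9.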

Additional observations from a re-analysis of the deposited data

How the results depend on the processing

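BCL2A1, BAK1, PMAIP1 and BID passed in the same direction in each of the 15 other fits. The calls near the threshold moved. The count of members lower was 2, and it became 1 with no filter, where BCL2L11 had an adjusted p of 0.0583 over 23002 genes, and 5 with quantile normalization, which added BCL2L1, MCL1 and BAX. Rescaling to TPM added BAX. With the stricter call, the members higher and lower became 0 and 0, the genes of the other lists 1 higher and 0 lower in place of 11 and 18, and all tested genes 117 higher and 87 lower in place of 2818 and 2479.

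Same-numbered samples of the groups correlated at -0.0812, 0.0722 and 0.0728 in their deviations from the group means, and not every sample correlated best with its own number, so the numbers were not taken to pair the samples. With the replicate block the members lower became 4, which added BCL2L1 and BAX.

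With each sample left out, the members lower ran from 1 (without sh-NC replicate 1) to 3 and those higher stayed at 3. The genes of the other lists ran from 7 (without sh-TRAF2 replicate 2) to 12 higher and from 13 to 19 lower. BCL2 ran from -0.04 (without sh-NC replicate 2, a reversed sign) to 0.18. TRAF2 stayed between -2.33 and -2.18. Low depth limits BCL2A1, from 144 reads per sample, BCL2, from 190, and BIK, from 7. The cause of these shifts was not tested.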
